A study of Danio rerio with 8 samples.

Results

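The 7 complement component genes c3a.2, c3a.3, c3a.6, cfb, cfd, c8a and c9 were followed in larval zebrafish, in RNA taken from the distal trunk. They were chosen by symbol, and each symbol matched 1 identifier among the 24345 genes of the deposited table. Complement is a cascade of secreted proteins that tags microbes and damaged cells. In the alternative pathway, factor D, a serine protease, cuts factor B once it is bound to C3, and the resulting enzyme cuts more C3. Cleaved C3 coats the target, and later components, among them C8 and C9, assemble into a pore in its membrane. The liver is known as the main source of most complement proteins, while skin cells and macrophages also make some of them.

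Larvae were of the Tropical 5D wildtype line. They were freed of their chorions with pronase at 4 hours post fertilization (hpf) and exposed from 6 to 8 hpf on, without change of medium, in the dark at 28.5 °C. The 4 control groups were kept in 1% DMSO and the 4 BkF groups in 12 µM benzo[k]fluoranthene, a polycyclic aromatic hydrocarbon, and tissue was taken at 48, 60, 72 and 96 hpf. For the BkF wells the labels state no share of solvent. The trunk was cut where the pigment is interrupted, close to the caudal peduncle, and the piece kept holds the region of the ectopic fin. In zebrafish larvae the liver lies in the front of the trunk. The study concerns fin duplication after exposure to benzofluoranthenes and the part of the aryl hydrocarbon receptor in it, per its title, and the comparison asks how transcripts differ in the exposed tissue.

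Each condition has 1 value per gene, described in the labels as a mean over 4 replicates of 50 larvae. The single libraries were not analysed here. No value therefore carries a replicate error, and the SD given is that of the log2 ratio over the 4 time points. Values are the authors' normalized counts. They are not scaled to gene length, so levels were compared between samples and not between genes. In whole tissue, fewer cells of a type and less RNA per cell cannot be told apart. The values summed to between 87750209 and 89533865 in the controls and between 76456319 and 78634021 in BkF. After rescaling all samples to 1 common total, the median log2 change of all genes moved from -0.01 to 0.18, and the share of calls that were higher moved from 48.7% to 78.7%. Of the values between 0 and 20, 8.79 to 22.5% per sample lay within 0.005 of a whole multiple of a step, which was 0.889 to 1.11 normalized counts depending on the sample. Values within a few steps of 0, as most of those of c9, are given as listed.

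The BkF sample at 48 hpf stood apart from the other 7. Several plasma protein and lipoprotein genes of the liver and yolk were far higher in it than elsewhere, among them apoa1a at 3097 normalized counts against 25.9 or less in each other sample. Complement values that rest on that sample are therefore given with and without the 48 hpf pair.

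Among the 7 genes, cfb and c3a.2 rose under BkF and cfd fell, and the other 4 did not pass. The test was limma, fitted to log2(value + 1) with a term for each time point, with two-sided Benjamini-Hochberg adjustment over the 21950 genes with a mean of 10 or more in the 8 samples. Of all these genes 33.9% passed, 16.5% as higher and 17.4% as lower. The 3 of 7 called here are thus close to the share of all genes. The p-values of this test set the mean log2 ratio of BkF to control against its spread over the time points, not between animals. All 3 calls and their directions were kept under each alternative scaling, filter and pseudocount and without the samples of any 1 time point. The groups did not overlap for the same 3 genes. Of all genes tested 28.4% had groups apart, 14.6% with BkF higher and 13.8% with BkF lower.

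At single time points, where 1 value stands for each condition and no test is possible, the members with a log2 ratio of 1 or more numbered 5, 3, 2 and 2 of 7 at 48, 60, 72 and 96 hpf. Over all genes tested that share was 3.64%, 4.2%, 4.88% and 5.29%. At 48 hpf the 5 were c9, c3a.3, cfb, c3a.2 and c3a.6, at 60 hpf the 3 were cfb, c3a.2 and c9, and at 72 and 96 hpf only cfb and c3a.2 of the 7 were left. The gene c9 was among the genes tested only through its BkF value at 48 hpf, and at 60 hpf it was 6.4 against a control listed at 0. Of the 6 members with a mean of 10 or more in the 6 samples of the other times, 4 had such a ratio at 48 hpf, against 3.58% of all genes with such a mean. Of these 4, c3a.3 and c3a.6 had control values near 0 at 48 hpf, 1.11 and 2.13, against 30.7 and 5.38 in BkF. The step in that control sample was 1.11, and the log2 ratio of c3a.6 was 1.03. Ratios of -1 or less belonged to cfd at every time and to c8a at 60 hpf. Over all genes their share was 4.12%, 5%, 6.27% and 8.7%.

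**Figure D1:**
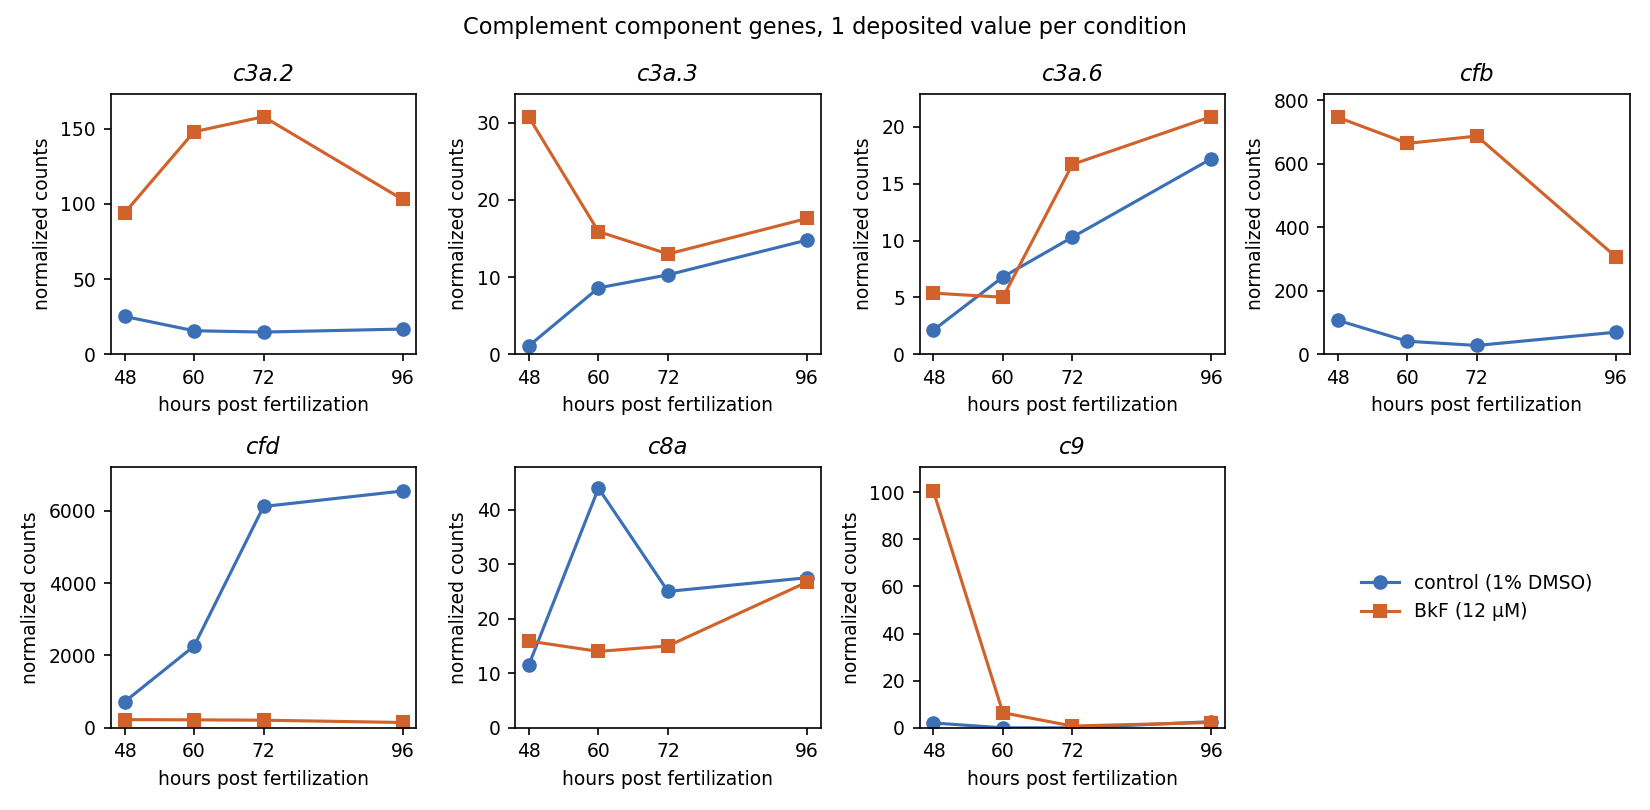
Normalized counts of the 7 complement genes (vertical axes from 0, a separate scale per gene) against hours post fertilization, with 1 deposited value per condition and no error bars. Circles are controls and squares BkF. The BkF values of c3a.2 and cfb lie above every control value and those of cfd below, and c9 stands at 100.4 in BkF at 48 hpf and at 6.4 or less elsewhere.

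The gene cfd, which encodes the factor D protease, had the largest change of the 7. In controls it stood at 719, 2260.0, 6120.0 and 6548 normalized counts at 48, 60, 72 and 96 hpf. In BkF it stood at 227, 221, 211 and 148 at the same times. Control values thus spanned 9.11-fold and BkF values 1.53-fold, and the highest BkF value lay below the lowest control value. The control value was 3.17 times the BkF value at 48 hpf, 29.0 times at 72 hpf and 44.4 times at 96 hpf. The log2 change was -3.83 ± 1.70 (SD over 4 time points, limma adjusted p = 0.00589).

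Whether the cfd difference grew with age was tested with the interaction of BkF with hpf. The ratio had a slope of -1.85 ± 0.320 log2 units per 24 h (SE, limma adjusted p = 0.0977), so it did not pass. Only 3 of the 21950 genes passed this test (0.0137%), and 3633 (16.6%) had an unadjusted p under 0.05. Without the 72 hpf samples the slope of cfd was -1.79 (adjusted p = 0.0355) and without the 96 hpf samples -3.19 (adjusted p = 0.000142), and both passed. Those fits called 429 and 1719 genes. The fits without the 48 or the 60 hpf samples called 0 genes, so cfd did not pass in them. Over time alone, with treatment as a factor, 1 gene passed (0.00456%), 6412 (29.2%) had an unadjusted p under 0.05, and none of the 7 complement genes passed. In the control samples alone the slope of cfd was 1.53 per 24 h (adjusted p = 0.577), in a fit that called 0 genes (0%). In the BkF samples alone it was -0.32 (adjusted p = 0.127), in a fit that called 10.4% of genes.

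The gene cfb encodes factor B, the substrate of factor D. It stood at 107, 41.2, 27.9 and 69.7 normalized counts in controls and at 746, 664, 687 and 307 in BkF at the successive times. All BkF values lay above all control values, with the lowest in BkF at 96 hpf and the lowest in controls at 72 hpf. BkF values were 6.97, 16.1, 24.7 and 4.41 times the control values. The log2 change was 3.37 ± 1.11 (limma adjusted p = 0.00263). The interaction with hpf was -0.44 per 24 h (adjusted p = 0.736). It turned to 1.79 and passed without the 96 hpf samples (adjusted p = 0.0143), in a fit that called 1719 genes.

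**Figure D2:**
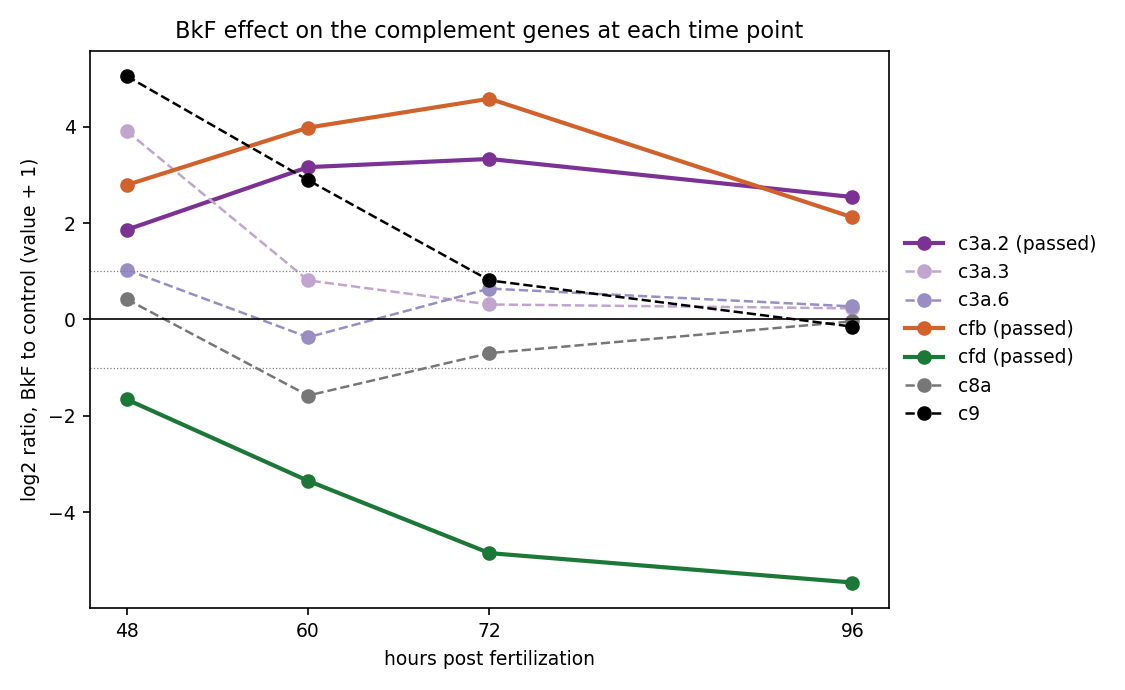
Log2 ratio of BkF to control on the value + 1 scale (vertical axis) for the 7 complement genes against hours post fertilization, 1 ratio per time point. Solid lines mark the 3 genes that passed the test, and dotted horizontal lines a log2 ratio of 1 either way. The cfd line goes from -1.66 to -5.46, while cfb and c3a.2 peak at 72 hpf and c9 and c3a.3 fall from their ratios at 48 hpf.

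Of the 3 genes for C3, the central protein that the cascade cleaves, c3a.2 rose. It stood at 25.2, 15.7, 14.8 and 16.8 normalized counts in controls and at 94.0, 148, 158 and 103 in BkF. The groups were apart at every time, by 3.73, 9.43, 10.7 and 6.12 times, and the log2 change was 2.72 ± 0.67 (limma adjusted p = 0.00174). No change of this ratio with time passed (interaction 0.21 per 24 h, adjusted p = 0.832).

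The paralog c3a.3 did not pass. It stood at 1.11, 8.61, 10.3 and 14.8 in controls and at 30.7, 15.9, 13.0 and 17.6 in BkF. BkF was higher at each time, but the groups overlapped, and the wide gap lay at 48 hpf. The log2 change was 1.32 ± 1.75 (adjusted p = 0.178), and it was 0.45 without the 48 hpf samples and 0.67 with a pseudocount of 10.

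The third paralog, c3a.6, was low throughout and did not pass either. It stood at 2.13, 6.8, 10.3 and 17.2 in controls and at 5.38, 5.02, 16.7 and 20.9 in BkF, with a log2 change of 0.39 ± 0.60 (adjusted p = 0.443). The change was 0.18 without the 48 hpf samples and 0.65 without the 60 hpf samples. In both treatments the highest value was that at 96 hpf. The slope shared by both was 1.1 log2 units per 24 h (limma adjusted p = 0.063) and did not pass.

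The C3 genes are close paralogs, some of them adjacent, and Salmon, the tool named for quantification, divides reads between similar transcripts, so each paralog's value is uncertain. In the RefSeq assembly GRCz12tu, c3a.2 and c3a.3 are direct neighbours among protein-coding genes, and c3a.6 is followed by c3a.5 and c3a.1. The sum over the 7 measured C3 genes is less exposed to that division. It ranged from 380.3 to 496 in controls and from 800.0 to 848 in BkF, without overlap. Of the summed counts, which are not corrected for length, c3a.2 made up 3.39 to 5.81% in controls and 11.3 to 18.6% in BkF.

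Of the genes of the membrane pore, neither c8a nor c9 passed. The gene c8a, for the alpha chain of C8, stood at 11.6, 43.9, 25.0 and 27.5 in controls and at 15.9, 14.0, 15.0 and 26.7 in BkF. BkF was lower at 60, 72 and 96 hpf and higher at 48 hpf, and the groups overlapped (log2 change -0.48 ± 0.87, adjusted p = 0.367). The value was -0.11 without the 60 hpf samples.

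The gene c9, for the protein that forms the wall of the pore, was listed at 2.06, 0, 0 and 2.61 in controls. In BkF it was listed at 100.4, 6.4, 0.758 and 2.25. It entered the test with a mean of 14.3 only through the BkF sample at 48 hpf, and without the 48 hpf samples its mean was 2.0. Its log2 change was 2.15 ± 2.31 (limma adjusted p = 0.12), and it was 1.18 without the 48 hpf samples and 0.99 with a pseudocount of 10.

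The liver and yolk genes that set the BkF sample at 48 hpf apart were counted over whole marker lists. Of all 23 measured liver markers 14 had their highest value of the 8 samples there, against 13.7% of all measured genes. Several of them passed the filter on the mean only through that sample, so the count was repeated, after the data were seen, over genes with a mean of 10 or more in the samples of the other times. It was then 8 of 13 liver markers, against 13.5% of all such genes. Of all 10 yolk and enterocyte identifiers 7 were highest there, and 1 of the 3 that had such a mean. The apolipoprotein gene apoa1a stood at 14.9 to 25.9 in the controls and at 7.21 to 20.1 in the other BkF samples. The lipoprotein gene apoa2 stood at 1099.5 there, at 1.09 to 4.88 in controls and at 16.9 to 26.3 in the rest of BkF. The plasma protein gene fetub stood at 306 there and at 2.96 or less in the other 7 samples. Both identifiers of afp4, a gene of gut and yolk, were listed at 80.9 and 129.7 there and at 1.03 or less elsewhere. The liver fatty acid binding protein gene fabp10a, a defining marker, did not follow, at 3.54 there and 8.65 to 15.2 in controls. The summed level of all 23 measured liver markers ran from 45847 to 73678 in controls and from 20916 to 38683 in BkF, where it was highest at 48 hpf.

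**Figure D3:**
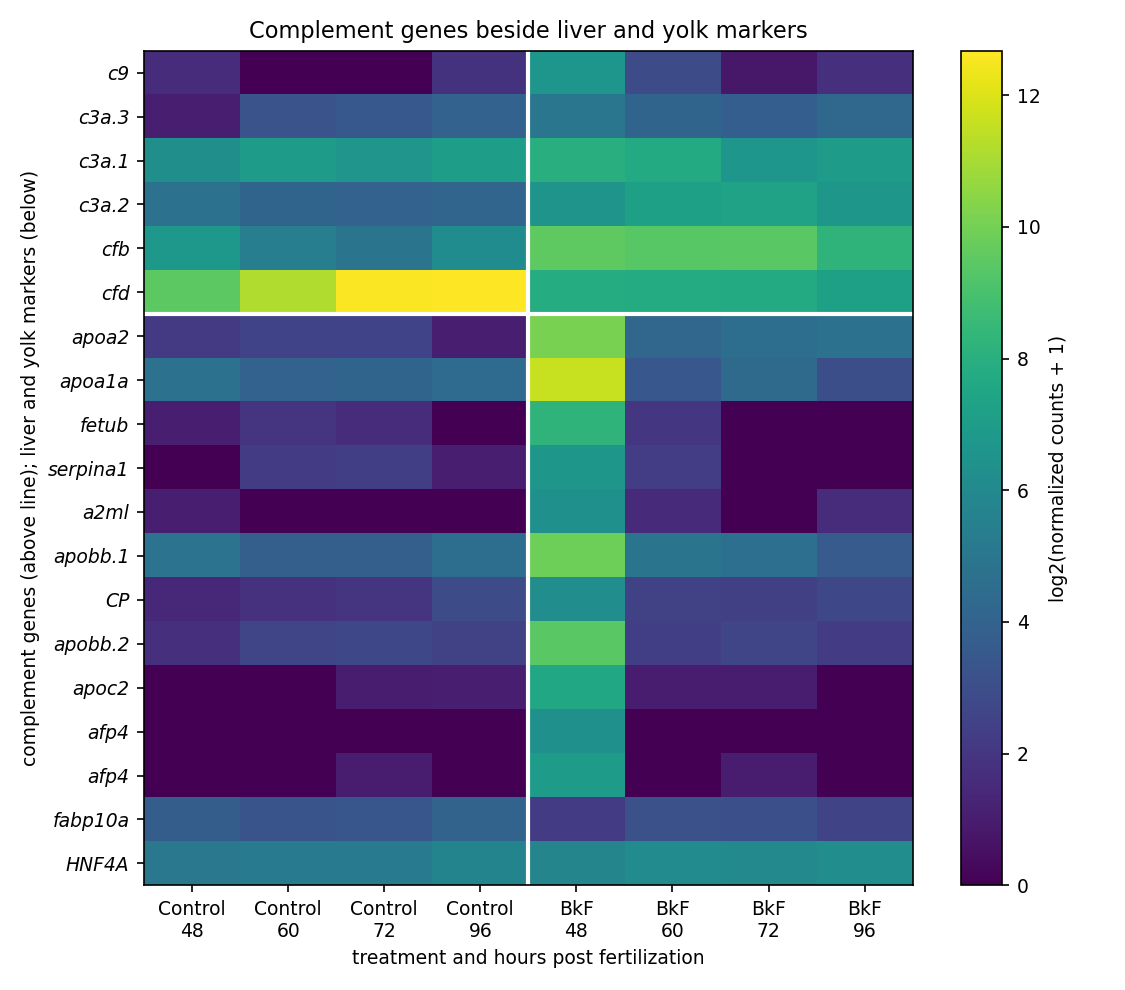
Level of 6 complement genes (above the white line) and of liver and yolk markers (below it) in the 8 samples, as log2(normalized counts + 1) on the color scale. CP, also below the line, comes from the list of acute phase genes. Columns are treatment and hours post fertilization, controls on the left. In the BkF column at 48 hpf, c9 and most of the markers are at their highest, while fabp10a is at 3.54 normalized counts.

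The high values of c9 and c3a.3 lay in that same sample, and the part that liver or yolk RNA had in them was not tested. The C3 gene c3a.1, at 244 there and 78.8 to 133 in controls, was also at its highest in it, as was cfb. The log2 change of c3a.1 was 0.57 with the 48 hpf samples and 0.22 without them. For cfb, c3a.2 and cfd the log2 changes without the 48 hpf samples were 3.56, 3.01 and -4.55, and each still passed.

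The other genes of the cascade were taken from a list of symbols by role. Of 33 measured genes 28 were tested, 7 rose and 7 fell, so 14 of 28 passed against 33.9% of all genes, and their median log2 change was 0.11 against -0.01 for all genes. The count of 7 higher rose to 12 on a common total, while that over all 21950 genes rose from 3624 to 7946. Without the 60 or the 72 hpf samples 4 were higher in each case, and 3 and 2 lower. Over all genes those fits called 1664 and 1838 higher, and 1830 and 1972 lower.

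Genes for the cleaved proteins C3, C4 and C5 were higher in 5 of 7 tested and lower in 0, against 16.5% and 17.4% of all genes, with a median log2 change of 0.69. The C3 gene c3a.4 rose by 1.79 ± 0.72 (limma adjusted p = 0.00841). Control values lay between 11.4 and 26.6 and BkF values between 41.3 and 80.0. The C4 gene c4, whose product acts in the classical and lectin pathways, rose by 1.31 ± 0.77 and its paralog c4b by 0.69 ± 0.20. For c4b, controls lay between 533 and 689 and BkF between 824 and 1149. The calls of c4 and of c3b.2, another C3 gene (0.72 ± 0.35), ended without the 60 or the 72 hpf samples. The gene c3b.1 rose by 0.67 ± 0.16. The values of c3a.1 (0.57 ± 0.79) and c5 (-0.50 ± 0.37) did not pass.

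Genes that start the classical and lectin pathways were lower in 4 of 9 tested, against 17.4% of all genes, and higher in 0, with a median of -0.64. The 4 that fell encode lectins or a collectin, proteins that bind sugars on microbes. The gene hbl1 fell to 106 to 139.9 in BkF from 199 to 282 in controls, a log2 change of -0.94 ± 0.08 (limma adjusted p = 0.00196). Its relative hbl2 had -0.64 ± 0.08, a call that ended without the time point block, and COLEC11 had -0.76 ± 0.18, a call that ended without the 60 or the 72 hpf samples. The gene mbl2 had -1.30 ± 0.74 at 2.97 to 21.6 normalized counts, and its call ended without the samples of any 1 time point, without the block, on the same total and after quantile normalization. None of c1qa, c1qb and c1qc, which encode the chains of C1q, passed, all at 33.4 or less. The lectin protease gene MASP1 had -0.05 ± 0.65, and passed as higher (0.27) without the 96 hpf samples. The scavenger receptor gene COLEC12, with 0.15 ± 0.24, passed only on the same total (0.34).

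**Figure D4:**
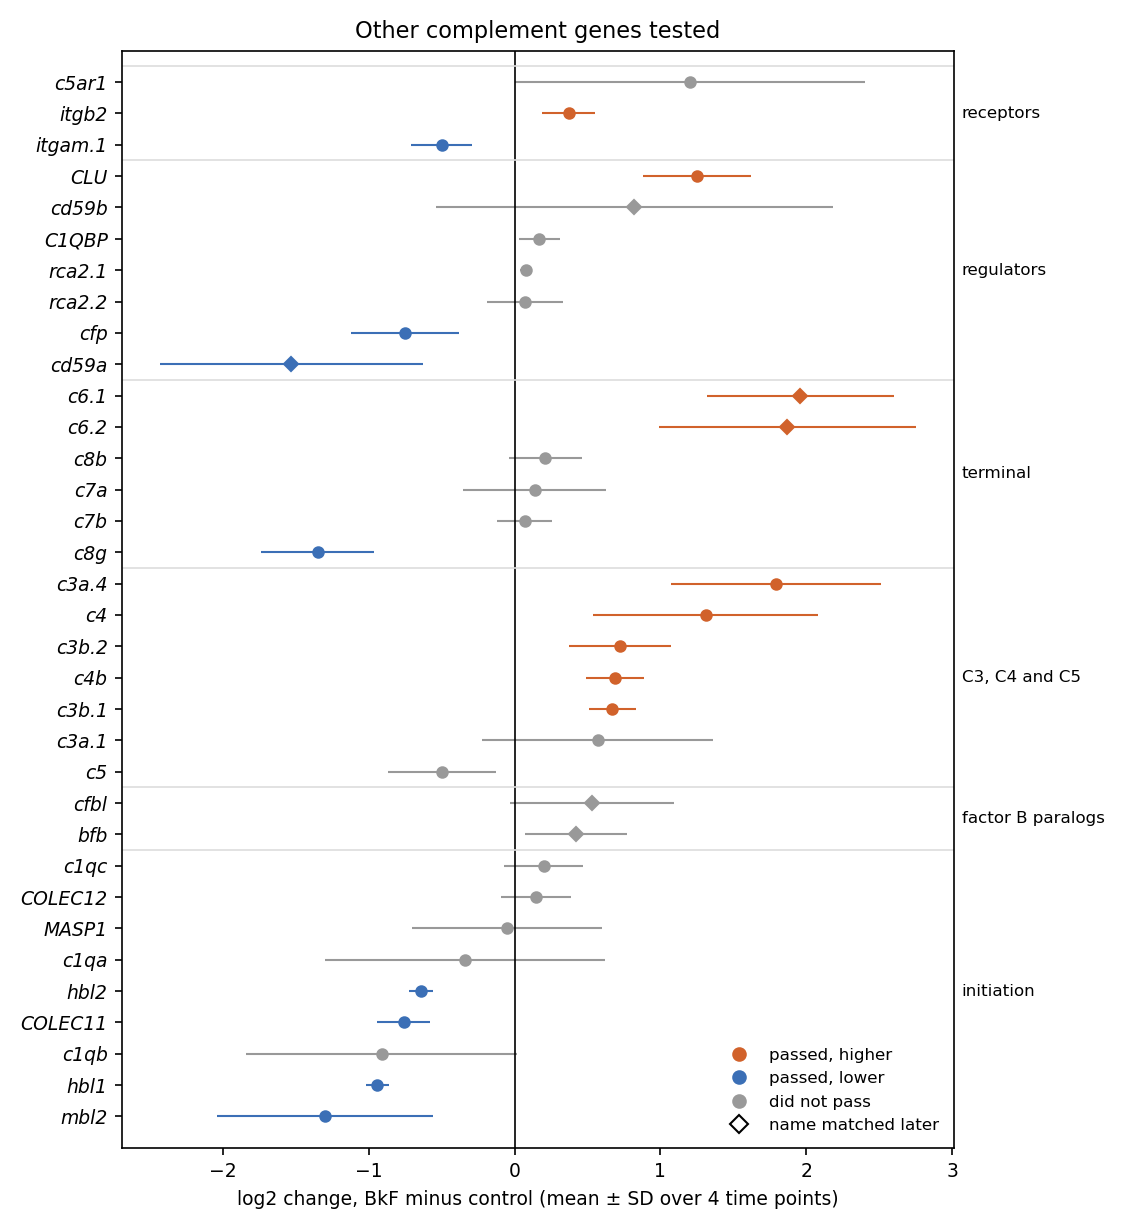
Log2 change of BkF minus control (points, mean over 4 time points; bars, SD over time points) for the other complement genes tested, grouped by role. Orange points passed as higher, blue as lower and grey did not pass; diamonds are genes whose names were matched after values were seen. Genes for C3 and C4 lie mostly to the right of 0 and lectin genes to the left, with c6.1 at 1.96 and c6.2 at 1.87 farthest right.

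Of the terminal components on the list 1 of 4 passed, against 33.9% of all genes. The gene c8g, for the small chain of C8, lay between 22.8 and 34.3 in controls and between 7.45 and 17.0 in BkF. It fell by 1.35 on the log2 scale (SD 0.39, limma adjusted p = 0.0138), a call that ended without the 60 or the 72 hpf samples. The neighbour of c8a in GRCz12tu, c8b, had 0.21 ± 0.25, c7a 0.14 ± 0.49 and c7b 0.07 ± 0.19, none of which passed. On the same total c8b (0.39) and c7b (0.25) passed, and c7a turned to -0.07 without the 72 hpf samples. Both C6 genes, c6.1 and c6.2, were matched after their values were seen. They stood at 78.1 to 187 and 207 to 579 in controls and at 426 to 651 and 1144 to 1619 in BkF. Their log2 changes were 1.96 ± 0.64 and 1.87 ± 0.88 (limma adjusted p = 0.00286 and 0.00748).

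The relatives of cfb that lie next to it in GRCz12tu, bfb and cfbl, were also matched afterwards and did not pass. The gene bfb had 0.42 ± 0.35 (adjusted p = 0.0608) and lay between 457 and 648 in controls and between 431 and 895 in BkF. It passed without the 96 hpf samples (0.59), after quantile normalization (0.44) and on the same total (0.61). The gene cfbl had 0.53 ± 0.56 (adjusted p = 0.117), and passed without the 48 hpf samples (0.77) and on the same total (0.71). These ranges overlapped between treatments, unlike those of cfb.

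Of 5 tested regulators 1 was higher and 1 lower, close to the shares of all genes (16.5% and 17.4%). The gene cfp encodes properdin, which stabilizes the C3-cutting enzyme of the alternative pathway. Its values were 2099 to 2881 in controls and 1253 to 1693 in BkF. It fell by 0.75 on the log2 scale (SD 0.37, limma adjusted p = 0.0106), and the call ended without the 72 hpf samples. The clusterin gene CLU, whose product binds the forming pore, lay between 7331 and 11522 in controls and between 15769 and 24577 in BkF, and rose by 1.25 ± 0.37 (adjusted p = 0.00193). The values of rca2.1 (0.08 ± 0.04), rca2.2 (0.07 ± 0.26) and C1QBP (0.17 ± 0.14) did not pass, and rca2.1 and C1QBP passed on the same total (0.26 and 0.35). The sign of rca2.2 turned without the 72 hpf samples (-0.01). The pore inhibitor gene cd59a, matched later, had -1.53 ± 0.90 at 7.29 to 49.8 normalized counts (adjusted p = 0.0286), a call that ended without the 60, the 72 or the 96 hpf samples. Its paralog cd59b had 0.82 ± 1.36 and did not pass.

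Of 3 tested receptor genes 1 rose and 1 fell, a number too small to set against the 16.5% and 17.4% of all genes. Both encode chains of integrin receptors for cleaved C3 on leukocytes. The gene itgb2 rose by 0.37 ± 0.18 (adjusted p = 0.0294) and itgam.1 had -0.50 ± 0.21 (adjusted p = 0.0217). The first call ended without the 60, the 72 or the 96 hpf samples and the second without the 48, the 60 or the 72 hpf samples and on the same total. The C5a receptor gene c5ar1 had 1.2 ± 1.2 (adjusted p = 0.0958). Its controls lay between 6.58 and 26.9 and its BkF values between 28.1 and 55.1, so the groups did not overlap although the test was not passed.

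Markers of other cell types were counted in the same fit, in which 16.5% of all genes were higher and 17.4% lower. Of 16 tested macrophage identifiers 6 rose and 0 fell, with a summed level of 4930.3 to 5784 in controls and 5916 to 12202 in BkF. That sum was highest in BkF at 96 hpf, where cd68, ctss2.2 and SLC7A7, all among the 6, stood at 3973, 2567 and 1453. The largest changes were those of ctss2.1 (1.96 ± 0.59) and SLC7A7 (1.90 ± 0.83). The other 10 did not pass, among them the tested MFAP4 identifiers (0.17 to 0.27), csf1rb (-0.20), marco (0.25) and grna (-0.39). Of 9 neutrophil genes 4 rose and 0 fell, with mmp13a (3.53 ± 1.26) and MMP9 (1.92 ± 0.80) ahead, 2 metalloproteinase genes that other cells express as well. The 5 that did not pass were lyz (-0.16), nccrp1 (0.07), npsn (0.28), srgn (0.48) and scpp8 (1.12). Epidermal and periderm genes fell in 17 of 23 and rose in 1, and their sum ran from 7008109 to 8429717 in controls and from 1784989.9 to 3494104 in BkF. The keratin genes krt91 (-3.31 ± 0.29) and cyt1l (-2.61 ± 0.91) led. Ionocyte genes fell in 7 of 12 and rose in 0, with foxi3a (-2.79 ± 0.99) and foxi3b (-2.34 ± 1.16) in front. Fin mesenchyme genes fell in 4 of 8 and rose in 2, and the actinodin gene and2 had the largest change (-1.64 ± 0.21), followed by and3 (-1.16 ± 0.29). The part of these cells in the complement values was not tested.

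The expression patterns of the 7 genes over the 8 samples were compared with those of the other named genes tested, 14726 in all, by Pearson r of log2(value + 1). The 8 samples share 2 treatments and 4 time points, so these r describe the libraries and carry no p. Pearson r takes no account of the size of a change. Some of the genes named below changed little, such as RC3H1 (4611 to 5239 normalized counts) and TXN2 (1919 to 2222). The pattern of cfb was most like that of c3a.4 (r = 0.994), followed by EMC3 and cfap65. That of c3a.2 was most like INHBB (0.996), ITPRIP and DAAM1, and ZNF143 (0.995) and PNISR were among the 3 genes nearest to cfd. The pattern of c9 was most like RC3H1 (0.965), followed by a2ml and PYGL. The gene a2ml, a liver marker, stood at 82.4 in BkF at 48 hpf and at 2.07 or less elsewhere. Like c9, a2ml entered the comparison only through that sample, with a mean of 10.9, and of 0.673 without the 48 hpf samples. The genes nearest to c3a.3 were TXN2 (0.962), MRPS17 and SLC12A9, those nearest to c3a.6 were pdcd11 (0.976), cul5b and PEX14, and those nearest to c8a were FBXO22 (0.968), ftr22 and taco1.

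Between the 7 genes themselves, c3a.2 and cfb had r = 0.963 over the 8 samples. The r of cfd was -0.926 with c3a.2 and -0.904 with cfb. All other pairs lay between -0.622 and 0.647, and c3a.3 and c3a.6 had r = 0.461 and 0.132 with their paralog c3a.2.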

How the data were processed

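Total RNA from the distal trunk was made into stranded libraries and read as 100 bp single ends, per the labels. Per the labels, each deposited value is a mean of normalized counts over 4 libraries, 32 libraries in all. The authors deposited this signal, normalized counts averaged over replicates, per the labels. It is not whole counts, so no count test was run. The submitters' processing notes name FastQC, Trimmomatic, Salmon, DESeq2 and Zv9. Their versions are not given in the sources used here. Depth per library is unknown, so no counting interval is given.

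Symbols were matched through a gene name table, which names 18028 of the 24345 identifiers. Limma 3.58.1 in R 4.3.3 was run on log2(value + 1) for genes with a mean of 10 or more. Its fit had time point as a block and an intensity trend. A run on simulated data, with its outcome not reported here, used independent normal errors on the log2 scale. Those data held no stepped low values and no single deviating sample. Slopes are per 24 h. Genes named beside the 7 were the 5 highest and 5 lowest called complement genes, those with a mean of 100 or more, the 2 largest changes of other lists, defining markers, and the 3 nearest patterns. Some results that this rule would name are not reported here. Other names were chosen after their values were seen. Members and lists were chosen with earlier results of these data known. Alternatives changed pseudocount, filter, normalization, prior, block and samples.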

Additional observations from a re-analysis of the deposited data

Results flagged for a closer look

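The liver list had 17 tested genes and the yolk and enterocyte list 8 tested identifiers. In 9 of these the log2 ratio of BkF to control was 1 or more at 1 time and -1 or less at another. No share over all genes is given for this count. That opposition was not tested by itself, and the interaction with hpf did not pass for any of the 9 (limma adjusted p = 0.113 to 0.582). For tfa, which encodes transferrin, the highest ratio was 2.42 at 60 hpf and the lowest -3.29 at 96 hpf. For apoa1a it was 6.85 at 48 hpf and -1.41 at 96 hpf. The other 7 were highest at 48 hpf as well. The ratio there was 3.93 for FGB and 2.71 for FGG, which encode chains of fibrinogen, and the lowest ratios were -1.64 and -2.08. For serpina1l and ambp it was 2.03 and 1.96, and the lowest were -1.75 and -1.78. The highest ratios of serpina1, fetub and apoc2 were 6.71, 7.18 and 7.57. The lowest of these 3, in the same order, were -2.36, -1.61 and -1.05, between values of 4.14 normalized counts or less. Without the 48 hpf samples the means of FGB, FGG, serpina1, fetub and apoc2 were 5.99, 9.61, 2.17, 1.31 and 0.669. These 5 thus passed the filter of 10 only through the 48 hpf samples.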

How the results depend on the processing

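For the 7 complement genes the BkF effect kept its direction and its side of the threshold under every alternative that gave a value. With a mean of 50 or more, c3a.3, c3a.6, c8a and c9 had none. With all samples set to 1 common total, 7946 genes were higher and 2151 lower, and 12 other complement genes were higher. Leaving out 1 time point gave 1664 to 3427 genes higher, 1830 to 3480 lower, 4 to 7 other complement genes higher and 2 to 6 lower. The slope with hpf was called in 0 genes without the intensity trend, 0 in controls alone, 2282 in BkF samples alone and 0 to 3934 without 1 time point. The interaction was called in 7 genes with no filter, 0 without the intensity trend and 0 to 1719 without 1 time point.

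Signs turned as follows, and the cause was not tested. The slope was -0.31 for c3a.3 and -0.32 for cfd in BkF samples alone, and 0.31 for c9 in controls alone. Without 1 time point it ran from -0.15 to 0.01 for c3a.2 and from -3.73 to 0.39 for c9. The interaction of c3a.6 was 0.01 with a pseudocount of 10 and 0.05 after quantile normalization. Without 1 time point it ran from -0.46 to 1.48 for c3a.2, -0.39 to 0.31 for c3a.6, -1.12 to 0.98 for c8a and -1.41 to 1.79 for cfb. The BkF effect of MASP1 was 0.13 on the same total. Without 1 time point it ran from -0.18 to 0.27 for MASP1, -0.07 to 0.28 for c7a and -0.01 to 0.16 for rca2.2. The BkF samples alone and a pseudocount of 5 were added after seeing the data. The test pairs BkF with control by time point. By replicate, no paired analysis was possible because each condition has 1 deposited value and no replicate numbers.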

Other observations

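Acute phase genes, which the liver and other tissues regulate in inflammation, were counted together with regulators of inflammation. Of 17 tested, 4 rose and 4 fell, against 16.5% and 17.4% of all genes, with a median log2 change of -0.10. Those that rose were STAT3, CEBPB, irg1l and ACOD1. Those that fell were crp2, crp5, hp (-0.70 ± 0.23, limma adjusted p = 0.00962) and CEBPA. The C-reactive protein gene crp5 stood at 34.6 to 78.2 normalized counts in controls and at 4.64 to 9.75 in BkF. Its log2 change was -2.94 ± 0.87 (SD over 4 time points, limma adjusted p = 0.00326). Its paralog crp2 stood at 107, 198, 307 and 443 in controls at 48, 60, 72 and 96 hpf and at 53.5, 40.7, 57.0 and 40.6 in BkF (limma adjusted p = 0.0068, named after its values were seen). Its control values, like those of cfd, were highest late and its BkF values stayed low. ACOD1, whose product makes itaconate in macrophages, stood at 9.88 to 38.2 in controls and at 57.0 to 136 in BkF. It rose on the log2 scale by 2.41 ± 0.95 (limma adjusted p = 0.00585).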
